A study of Mus musculus with 6 samples.

Results

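The expression of 10 transcription factors that form the core of the naive pluripotency network was followed in mouse embryonic stem cells with and without Ddx5. The members were taken by symbol: Pou5f1, Sox2, Nanog, Esrrb, Tbx3, Nr0b1, Nr5a2, Prdm14, Zfp42 and Sall4. All 10 stood on 1 row each of a table of 10989 genes. The cells were of the MPI-II line at passages 13 to 18. The wild-type (WT) group had 2 libraries, numbered as replicates, from cells with an intact Ddx5. The knockout (KO) group had 4 libraries, each from a line grown from a single clone after a Cas9 nickase and paired guide RNAs had cut the second exon of Ddx5. Feeder cells supported both groups, and the medium held 15% serum, 1000 U/ml leukemia inhibitory factor (LIF), 1 μM of the MEK inhibitor PD0325901 and 3 μM of a GSK3 inhibitor. LIF and the 2 inhibitors hold embryonic stem cells in the naive state, so every library here comes from cells under that support. Nothing in the labels says whether the WT replicates were separate cultures, so the p-values measure only the spread between these libraries.

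Naive pluripotency is the state of the unspecialised cells of the early embryo before implantation. Pou5f1 (the gene for Oct4), Sox2 and Nanog bind many enhancers together, their own included. Nuclear receptors such as Esrrb and Nr5a2, together with Tbx3, Prdm14 and Sall4, join them in keeping naive genes active and lineage genes quiet. Ddx5 encodes a helicase that unwinds RNA and takes part in microRNA processing, transcription and splicing.

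The upstream sequences of 3 members are shown because they bear on how the factors can act on one another's genes: Nanog, which was higher in the KO lines, Nr0b1, which was lower, and Zfp42, whose level varied most between the WT libraries. RefSeq promoter windows (build GRCm38.p6) matched 7 of the 10 members in 11 windows; Tbx3, Prdm14 and Sall4 had none. Each line gives the 250 bases before an annotated start, 5′ to 3′ on the gene's own strand. Capitals in the Nanog line mark a joined octamer and Sox motif, the pair of sites that Oct4 and Sox2 bind side by side. It was searched on both strands as CATTGT, then any 1 base, then ATGCAAA. Capitals in the Zfp42 line mark an octamer (searched as ATGCAAAT on both strands), the site of Oct4 and its relatives; the joined motif holds its first 7 letters.
Nanog, chr6:122707239-122707488, plus strand: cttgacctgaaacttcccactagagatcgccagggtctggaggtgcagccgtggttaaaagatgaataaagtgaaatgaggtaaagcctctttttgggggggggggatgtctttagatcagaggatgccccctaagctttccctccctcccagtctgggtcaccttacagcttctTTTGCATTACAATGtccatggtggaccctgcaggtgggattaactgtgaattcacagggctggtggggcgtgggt
Zfp42, chr8:43307010-43307259, minus strand: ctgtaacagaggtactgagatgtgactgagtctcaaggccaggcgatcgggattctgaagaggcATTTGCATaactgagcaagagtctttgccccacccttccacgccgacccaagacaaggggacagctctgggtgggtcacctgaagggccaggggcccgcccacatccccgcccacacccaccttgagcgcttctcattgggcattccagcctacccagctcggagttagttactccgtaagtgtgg
Nr0b1, chrX:86191525-86191774, plus strand: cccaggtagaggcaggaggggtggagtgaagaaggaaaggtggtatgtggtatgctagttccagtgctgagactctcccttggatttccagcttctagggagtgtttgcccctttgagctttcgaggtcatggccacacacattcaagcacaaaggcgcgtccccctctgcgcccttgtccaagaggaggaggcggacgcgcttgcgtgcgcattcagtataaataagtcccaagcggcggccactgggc

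The joined motif lay at bases -75 to -62 from that Nanog start, on the minus strand, and at -151 to -138 from the other annotated start. Among all 32851 RefSeq promoter windows, cut to the same 250 bases, it was found in 2 (0.00609%), and both were the overlapping windows of the 2 Nanog starts. The octamer, at bases -186 to -179 of Zfp42, was found in 1.60% of all windows and in 1 of the 7 members. The shorter octamer core ATGCAAA was present in Nanog, Zfp42 and Sox2 (4.12% of all windows), and the Sox core CATTGT in Nanog and Pou5f1 (10.7%). The motif of estrogen-related receptors such as Esrrb, TCAAGGTCA, was found in 0.387% of all windows and in none of the members' windows. These matches describe letters only, in 1 short window per start. Binding was not measured here.

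Values are normalized expression scores, given below in deposited units, and each gene's scores can be set side by side across libraries. In sorted values WT replicate 2 was the least like the others, with 51.2% of ranks within 1% of the median library. It listed 131 genes at 0, against 13 to 19 in each other library. Library totals, between 14612799 and 14722877 units, come from the normalization and do not tell the depth, which is unknown. Abundant genes stand on shared steps: 10 genes of a library, itself included, lay within 1% of the score of Pou5f1, Sox2, Nanog, Esrrb or Zfp42, so identical scores of such a gene in several libraries mean the same step. Ddx5 itself stood at 36433 and 36436 units in WT, against 5854, 8450, 12793 and 5659 units in KO lines 1 to 4, below both WT libraries in each line. KO and WT were compared with limma across all genes on log2 values, and a gene is called here when its adjusted p is below 0.05. Where a later fit leaves out 1 WT library, its spread comes from the KO lines alone, so its p-value holds no WT spread. Of the 10 members, 2 were called higher in the KO lines and 1 lower, beside 17.1% of all genes called in either direction (9.75% higher, 7.34% lower). The members' median log2 fold change was -0.014, beside 0.04 for all genes.

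**Figure D1:**
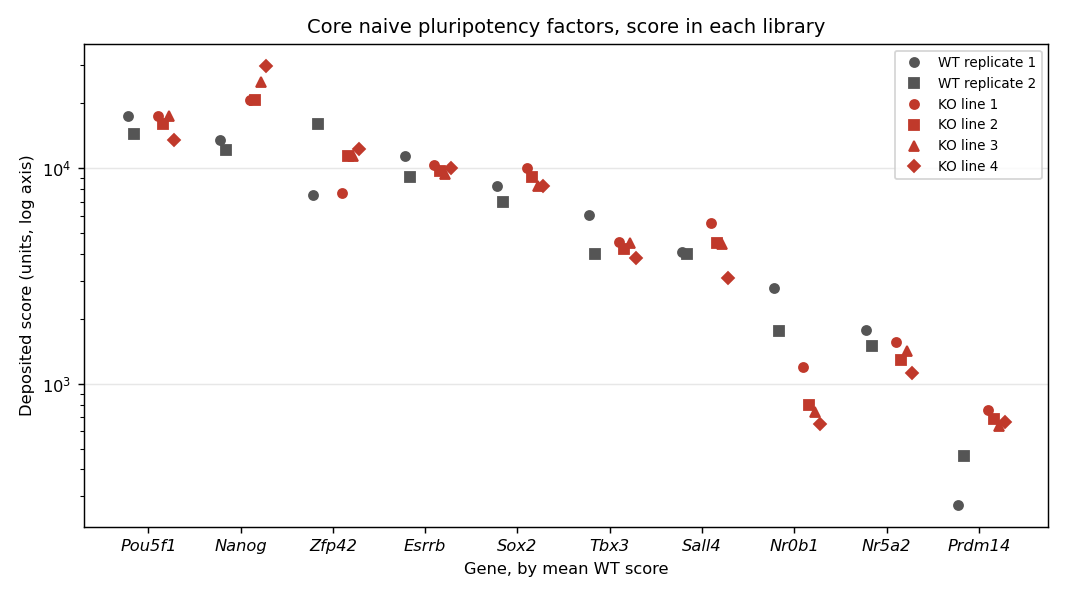
Scores of the 10 transcription factors in each library (log axis, deposited units); grey symbols are the 2 WT libraries and red symbols the 4 KO lines, with 1 symbol shape per number. Nanog and Prdm14 stand above both WT libraries in every KO line and Nr0b1 below them, while the groups overlap for the other 7 genes.

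Nanog, a homeobox factor that stabilises the naive state, rose in the KO lines. The gene lies on chromosome 6 (122707489 to 122714633, plus strand, GENCODE M21, build mm10). It stood at 13562 and 12197 units in WT, against 20699, 20699, 24993 and 29828 units in KO lines 1 to 4. All 4 KO lines lay above both WT libraries, and line 4 was the highest. The mean went from 12880 ± 965 (SD, n = 2) to 24055 ± 4349 units (SD, n = 4), a ratio of 1.87. On the log2 scale KO exceeded WT by 0.89 (SE 0.16, 95% interval 0.51 to 1.26, adjusted p = 0.0154, limma). Among all genes of a library, Nanog ranked 96 and 116 in WT and 56, 56, 36 and 26 in the KO lines. The call was lost without WT replicate 2 (adjusted p = 0.0601) and without KO line 3 (adjusted p = 0.0527), with log2 values of 0.78 to 0.96 over the 6 fits that left out 1 library.

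Line 4, where Nanog was highest, also stood apart for its chromosome. The 518 measured genes of chromosome 6 had a median log2 level 0.42 above their mean over the libraries in KO line 4, against -0.16 to -0.04 in the other 5. With each library's chromosome median subtracted, the centred log2 level of Nanog was -0.44 and -0.51 in WT and 0.17, 0.17, 0.40 and 0.21 in KO lines 1 to 4. All KO lines thus stayed above both WT libraries, and line 3 became the highest. The log2 fold change on these values was 0.71 (adjusted p = 0.00543, limma).

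Pou5f1, which encodes the POU-domain factor Oct4 (chromosome 17, 35506018 to 35510772, plus strand), did not pass the test. It stood at 17548 and 14346 units in WT, against 17548, 15992, 17548 and 13545 units in KO lines 1 to 4. WT replicate 1 and KO lines 1 and 3 thus shared 1 step, and line 4 lay lowest. Its log2 fold change was 0.018, with a 95% interval of -0.30 to 0.34 (adjusted p = 0.937, limma), and the sign turned with trimmed-mean scaling (-0.025). Sox2, the HMG-box partner of Oct4 (chromosome 3, 34650405 to 34652461, plus strand), stood at 8238 and 6944 units in WT, against 10048, 9078, 8238 and 8238 units in the KO lines. Lines 3 and 4 shared the step of WT replicate 1, and lines 1 and 2 lay above both WT libraries. Its log2 fold change was 0.23 (95% interval -0.045 to 0.50, adjusted p = 0.202, limma).

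Because these 3 factors act together, Nanog was also set against Pou5f1 within each library, a comparison chosen after the values were seen. The ratio of the Nanog to the Pou5f1 score was 0.773 and 0.850 in WT and 1.18, 1.29, 1.42 and 2.20 in KO lines 1 to 4. The ratio of Sox2 to Pou5f1 was 0.469 and 0.484 in WT and 0.573, 0.568, 0.469 and 0.608 in the KO lines. The Nanog ratio was thus higher in every KO line than in both WT libraries, while the Sox2 ratio of line 3 equalled that of WT replicate 1. Separation was not particular to Nanog: the ratio of Prdm14 was higher and those of Nr0b1 and Nr5a2 lower in every KO line. The ratios of Esrrb, Tbx3, Zfp42 and Sall4 overlapped between the groups. The share of all genes whose ratio to Pou5f1 separates in this way was not computed, so these ratios do not set the members apart. For plain scores, all KO lines lay outside the WT range in 43.7% of all genes. Chromosome medians were not subtracted from the scores used here. These ratios are not divided by transcript length, so they compare libraries and do not say which gene stood higher. With 2 libraries against 4, an exact permutation test cannot give a p below 0.0667, so none was run on these ratios.

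Sall4, a zinc finger factor that works with Oct4 and with the NuRD corepressor complex, varied among the KO lines more than it differed from WT. The gene lies on chromosome 2 (168748332 to 168767943, minus strand). It stood at 4094 and 3978 units in WT, against 5554, 4508, 4452 and 3096 units in KO lines 1 to 4. Line 1 lay above and line 4 below both WT libraries. The log2 fold change was 0.095 (95% interval -0.40 to 0.59, adjusted p = 0.773, limma). The SD of its log2 level among the KO lines, 0.35, was larger than that of 88.8% of all genes.

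The 3 orphan nuclear receptors did not move together. Nr0b1 (also called Dax1), which binds other nuclear receptors and Oct4 and restrains them, fell. It lies on chromosome X (86191764 to 86195947, plus strand). It stood at 2786 and 1754 units in WT, against 1197, 793, 742 and 648 units in KO lines 1 to 4. Every KO line lay below both WT libraries, with line 1 nearest to them. The mean went from 2270 ± 730 (SD, n = 2) to 845 ± 242 units (SD, n = 4), and WT was 2.69 times the KO level. This is a log2 fold change of -1.41 (SE 0.27, 95% interval -2.06 to -0.76, adjusted p = 0.0187, limma). In rank among all genes, Nr0b1 went from 1126 and 1951 in WT to between 2988 and 4876 in the KO lines. Its call was lost without WT replicate 1 (log2 -1.08, adjusted p = 0.0529), KO line 2 (-1.39, 0.0617) or KO line 3 (-1.36, 0.0609), where each pair gives the log2 value and the adjusted p from limma.

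Esrrb, a nuclear receptor without a known hormone that sustains self-renewal downstream of GSK3 inhibition, was the steadiest member among the KO lines. It lies on chromosome 12 (86361117 to 86521628, plus strand). It stood at 11416 and 9078 units in WT, against 10376, 9668, 9363 and 10053 units in KO lines 1 to 4. All 4 KO lines fell between the 2 WT libraries. The log2 fold change was -0.046 (95% interval -0.30 to 0.21, adjusted p = 0.781, limma), and the log2 SD among the KO lines was 0.065, a value under which 13.4% of all genes lay. Nr5a2 (also called Lrh1), a receptor that can activate Pou5f1 (chromosome 1, 136842571 to 136960448, minus strand), stood at 1775 and 1495 units in WT, against 1554, 1286, 1418 and 1122 units in the KO lines. Line 1 lay between the WT libraries and the other 3 lines below both. Its log2 fold change was -0.28 (95% interval -0.64 to 0.070, adjusted p = 0.218, limma).

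Prdm14, a zinc finger factor that keeps DNA methylation and fibroblast growth factor signalling low in naive and germ cells, rose. It lies on chromosome 1 (13113457 to 13127163, minus strand). It stood at 274 and 460 units in WT, against 754, 685, 634 and 667 units in KO lines 1 to 4. The KO lines lay close together and above both WT libraries, which themselves differed 1.68-fold. The mean went from 367 ± 132 (SD, n = 2) to 685 ± 50.6 units (SD, n = 4), a ratio of 1.87. This is a log2 fold change of 0.92 (SE 0.20, 95% interval 0.44 to 1.39, adjusted p = 0.0254, limma). The call was lost with any 1 of the 4 KO lines left out (adjusted p = 0.0521 to 0.0774, limma). Without WT replicate 1 the log2 fold change was 0.56, and without WT replicate 2 it was 1.27. With 1 WT library left, these fits hold no spread between WT libraries.

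Tbx3, a T-box factor that supports self-renewal downstream of LIF (chromosome 5, 119670669 to 119684724, plus strand), did not pass. It stood at 6040 and 3984 units in WT, against 4564, 4202, 4520 and 3842 units in KO lines 1 to 4. WT replicate 1 was the highest library, while WT replicate 2 lay among the KO lines. Its log2 fold change was -0.20 (95% interval -0.60 to 0.20, adjusted p = 0.432, limma). It turned with the WT library used: -0.50 without WT replicate 2 and 0.10 without WT replicate 1.

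Zfp42 (also called Rex1), a zinc finger protein used as a marker of the naive state, varied most between the WT libraries. It lies on chromosome 8 (43295063 to 43306980, minus strand). It stood at 7527 and 16051 units in WT, against 7708, 11450, 11450 and 12218 units in KO lines 1 to 4. WT replicate 1 and KO line 1 thus formed a low pair, and WT replicate 2 was the highest library. KO differed from WT by -0.060 on the log2 scale, with the widest interval of the 10 members (-0.80 to 0.68, adjusted p = 0.909, limma). The difference between the WT libraries, 1.09 on the log2 scale, was larger than that of 92.4% of all genes.

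The same 2 low libraries were low for chromosome 8 as a whole. Over its 603 measured genes, the median log2 deviation was -0.34 in WT replicate 1 and -0.32 in KO line 1, against 0.07 in WT replicate 2 and 0.22, 0.20 and 0.16 in KO lines 2 to 4. The 2 genes whose centred log2 profiles lay nearest to that of Zfp42, Kxd1 and Ing2, were also on chromosome 8. Kxd1, for example, stood at 440 and 910 units in WT, against 464, 732, 718 and 687 units in the KO lines. With the chromosome median of each library subtracted, the range of Zfp42 over the 6 libraries narrowed from 1.09 to 0.68 on the log2 scale. WT replicate 2 then stood 0.52 above the gene's mean and the other 5 libraries between -0.16 and 0.04. The log2 fold change on these values was -0.26 and did not pass (adjusted p = 0.31, limma). Why the chromosome medians differ was not tested.

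**Figure D2:**
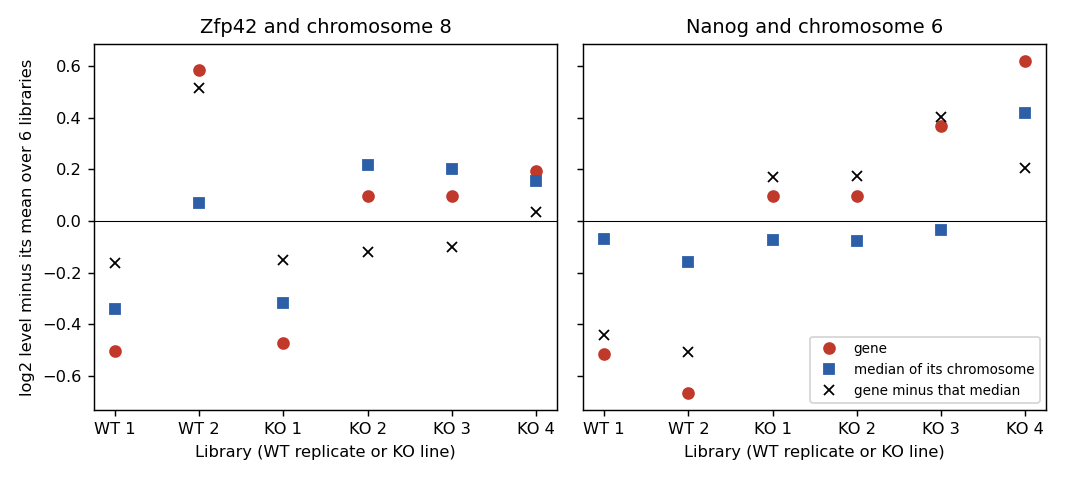
Centred log2 level (level minus its mean over 6 libraries) of Zfp42 and of Nanog in each library (red circles), the median of all measured genes on the same chromosome (blue squares) and the gene minus that median (crosses). Zfp42 and chromosome 8 are both low in WT replicate 1 and KO line 1; Nanog stays above both WT libraries in all 4 KO lines after the chromosome 6 medians are subtracted.

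To order the members by level, scores were divided by transcript length (the longest coding transcript in GENCODE M21), which takes the score to grow with length, a property not given in the sources used here. Pou5f1 stood highest in WT, at a mean of 11710 units per kb. Zfp42 (6418) and Nanog (5825 units per kb) came next with overlapping ranges, followed by Sox2 (3690) and Esrrb (2383). Nr0b1 (1256), Tbx3 (1006) and Sall4 (796 units per kb) formed a lower group in which each overlapped its neighbour. Nr5a2 (345) and Prdm14 (143 units per kb) were lowest and did not overlap. In the KO lines, Nanog (10880 units per kb) stood second and its range overlapped that of Pou5f1 (11860). Nr0b1 (467 units per kb) lay below Tbx3 (860) with no overlap and below the mean of Sall4 (868), whose lowest line overlapped its range. Prdm14 (267) overlapped Nr5a2 (284 units per kb). Zfp42 (5828), Sox2 (4327) and Esrrb (2294 units per kb) held the third to the fifth place.

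**Figure D3:**
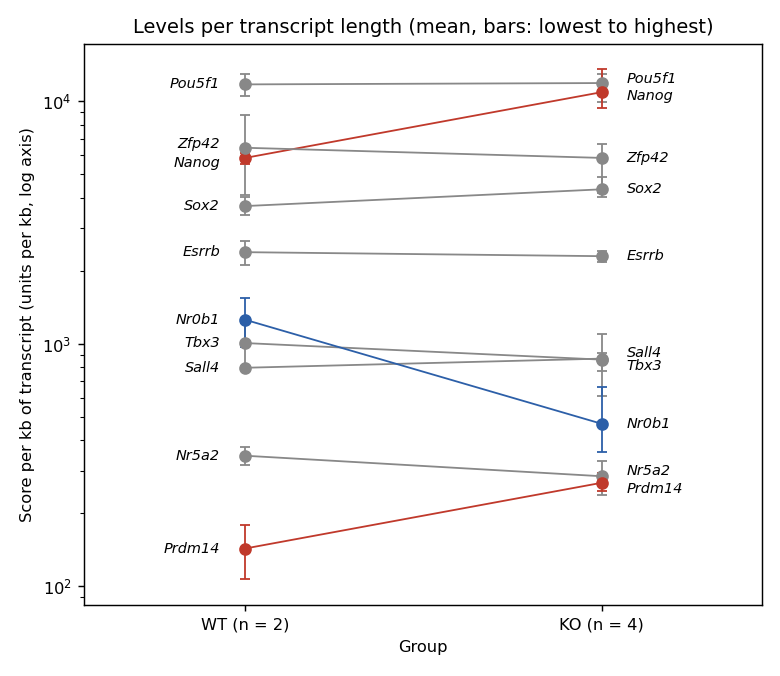
Mean score per kb of transcript in WT (n = 2) and KO (n = 4) for each gene (log axis; bars run from the lowest to the highest library), red for genes called higher, blue for lower and grey for not called. In the KO lines the range of Nanog overlaps that of Pou5f1, the mean of Nr0b1 drops below those of Tbx3 and Sall4, and the range of Prdm14 overlaps that of Nr5a2.

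The KO lines were separated from WT for 3 of the 10 members, Nanog, Prdm14 and Nr0b1, beside 43.7% of all genes (24.1% with all KO lines above both WT libraries and 19.6% below). With 10 members, neither this count nor the 3 of 10 called sets them apart from genes at large. The interval of each of the 7 members that were not called includes 0, and it runs furthest from 0 for Zfp42 (to -0.80) and least far for Esrrb (to -0.30), so differences up to those log2 sizes were not resolved. Within the KO group, line 1 had the highest score for 7 of the 10 members (30.7% of all genes), and line 4 the lowest for 5 (34.1% of all genes). In WT, 8 of the 10 members stood higher in replicate 1 than in replicate 2, beside 54.0% of all genes; Zfp42 and Prdm14 were the exceptions.

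**Figure D4:**
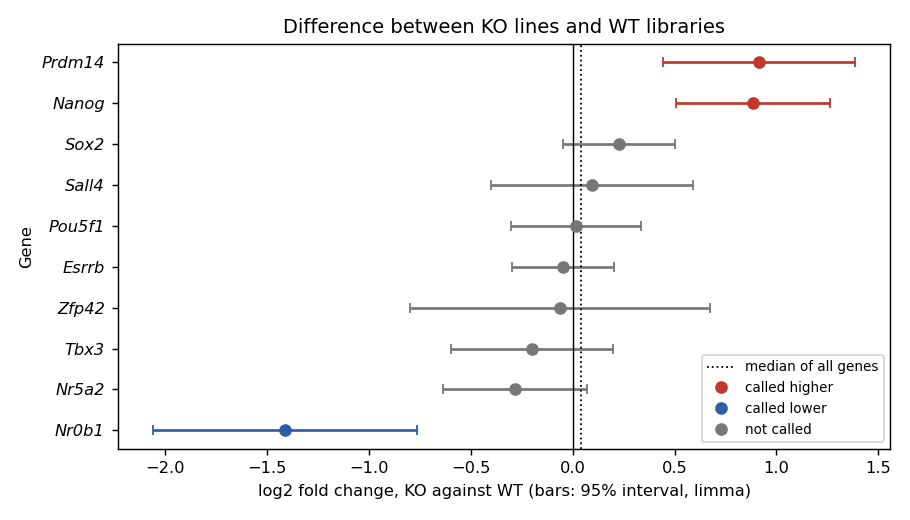
Log2 fold change of each gene, KO against WT, with its 95% interval from limma; the dotted line is the median of all genes (0.04). Nanog and Prdm14 lie to the right of 0 and Nr0b1 to the left, and the intervals of the other 7 include 0.

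Profiles over the 6 libraries were compared by the root mean square (RMS) difference of centred log2 levels. Nearest to Nanog were Nup210 and Tmtc1 (RMS 0.0818 and 0.0855), both on chromosome 6 as Nanog is. Nup210, a nuclear pore protein, stood at 1544 and 1678 units in WT, against 2598, 2616, 3222 and 3642 units in the KO lines, with line 4 highest as for Nanog. Nearest to Prdm14 were the bHLH repressor gene Hes6, on the same chromosome, and the kinase gene Sbk1 (RMS 0.0811 and 0.0927). Hes6 stood at 78 and 130 units in WT, against 177 to 196 units in the KO lines. Nearest to Nr0b1 were Xist and the macrophage marker Cd68 (RMS 0.14 and 0.146). Xist, the RNA that silences an X chromosome, is X-linked like Nr0b1 and stood at 460 and 276 units in WT, against 146, 98, 98 and 98 units in the KO lines. It overlaps its antisense gene Tsix, and without a stated strand setting their reads cannot be told apart. Among the members themselves, the closest pair was Tbx3 and Nr5a2 (RMS 0.127), and Nanog lay nearest to Prdm14 (0.341). These are descriptions over 6 libraries of 1 experiment.

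The 3 calls among the members were followed through every setting tried. Nanog lay between 0.69 and 0.96 on the log2 scale, Prdm14 between 0.56 and 1.27, and Nr0b1 between -1.74 and -1.08. The 0.69 of Nanog came from a block on replicate number, a fit that draws on KO lines 1 and 2 alone. All 3 kept their direction throughout, and none kept its call in every setting.

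**Figure D5:**
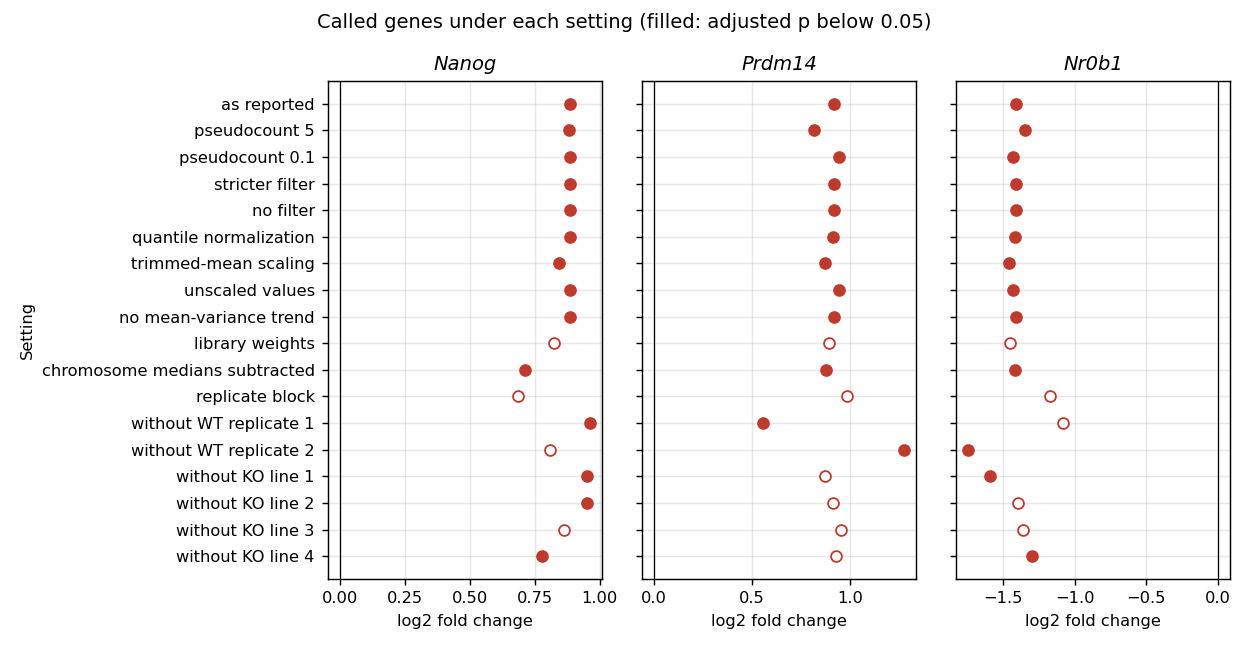
Log2 fold change (KO against WT) of Nanog, Prdm14 and Nr0b1 under each processing setting and with each library left out; filled points have an adjusted p below 0.05. Points for Nanog and Prdm14 stay right of 0 and those for Nr0b1 left of 0, and open points are the settings in which the call was lost.

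The counts that follow for other genes of the network stand beside 9.75% of all genes called higher and 7.34% called lower. Of 13 further transcription factors of the naive network, all measured, none rose and 3 fell, with a median log2 fold change of -0.21 (0.04 over all genes). The 3 were Gbx2 (log2 -2.74), a homeobox gene downstream of LIF, Klf4 (-0.94), a Krüppel-like factor, and Stat3 (-0.65), the transcription factor that LIF activates. Stat3 stood at 3318 and 2470 units in WT, against 1603, 1750, 1963 and 1990 units in KO lines 1 to 4, below both WT libraries (adjusted p = 0.0302, limma). It did not pass in 4 of the 6 fits that left out 1 library (without WT replicate 1 or KO line 1, 2 or 3, adjusted p up to 0.0893). Of 23 measured genes downstream of the core factors or expressed with them, 1 rose and 2 fell (median -0.11). Lin28a, an RNA-binding protein that blocks let-7 maturation, fell from 2291 and 1980 units in WT to 727, 548, 582 and 939 units in the KO lines (log2 -1.62, adjusted p = 0.00753, limma). Dnmt3l, a cofactor of DNA methylation, had a log2 fold change of -0.84 and Dppa2 of 0.51. Both calls depended on the libraries used: Dnmt3l lost its call without WT replicate 1, WT replicate 2, KO line 3 or KO line 4 (adjusted p up to 0.103), and Dppa2 kept it in 1 of the 6 fits, that without KO line 4 (adjusted p up to 0.108).

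Protein partners of the members stand beside the same shares of all genes. Of 15 measured protein partners and corepressors, 1 rose and none fell: Mta1, a NuRD subunit, went from 1680 and 1690 units to 2330, 2818, 2491 and 2747 units (log2 0.62, adjusted p = 0.0132, limma; 0.0536 without KO line 2). Relatives from the same gene families were listed too, with 21 of 35 measured and a median log2 fold change of 0.23. Among them Sall3, a relative of Sall4, fell. It stood at 1004 and 700 units in WT, against 516, 222, 182 and 168 units in KO lines 1 to 4. Its log2 fold change was -1.72, and leaving out single libraries kept the call in 1 of 6 fits, that without KO line 1 (adjusted p up to 0.112).

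Markers of other states and cells are given beside these results, again to be read against 9.75% of all genes called higher and 7.34% lower. Of 9 measured formative and primed genes, 2 rose and none fell: the homeobox gene Otx2 (log2 1.68) and the claudin Cldn6 (1.65, call kept in 1 of 6 such fits, that without WT replicate 1, adjusted p up to 0.0982). Of 6 measured early lineage genes (17 were listed), 1 rose, Tfap2c (log2 1.25; call lost without KO line 2 or 3, adjusted p up to 0.0565). Of 9 embryonic stem cell markers outside the members, 8 did not pass and Lin28a fell, with a median of -0.031. All of these but Alpl were also counted above among genes downstream of the core factors, so the fall of Lin28a is the same result. Of 17 measured feeder fibroblast markers (21 were listed), 15 fell, 2 did not pass and none rose. Their mean log2 level was 7.10 and 6.21 in the WT libraries and 3.80 to 4.34 in the KO lines, and their summed score was 82713 and 55114 units in WT and 42395 to 45429 in the KO lines. Fn1, the gene for fibronectin, made up most of the KO sums: it did not pass and stood at 36452 units in every KO line and at 36452 and 29855 units in WT. Without it the sum was 46261 and 25259 units in WT, against 5943 to 8977 units in the KO lines. None of these markers was listed at 0 in any library. Col6a1 (log2 -5.06), Col1a2 (-4.30) and Timp3 (-4.20) fell furthest. Dcn and Acta2 lost their call without KO line 2, 3 or 4, Vim without KO line 2 or 3 and Thy1 without KO line 2. The other called fibroblast markers kept theirs with any KO line left out. In such bulk samples, fewer cells of a type and less RNA per cell cannot be told apart, and the part of the fibroblast RNA in the members' differences was not tested.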

How the data were processed

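RNA sequencing libraries of 2 WT replicates and 4 KO lines were analysed. Build mm10, Bowtie2 2.2.0 and RSEM 1.2.17 were used per the submitters' processing notes, and how the authors annotated and normalized the values is unknown here. The deposited values are named CPM by the authors, but each is a whole number, and the libraries add up to 14612799 to 14722877 units. In the KO lines, 92.0% to 93.3% of sorted values lay within 1% of the median library. The share was 79.9% in WT replicate 1 and 51.2% in WT replicate 2. The deposited values were treated as a normalized score in deposited units, not as counts, so the depth and the precision it gives are unknown. The test had been planned for normalized values, with scaling where libraries do not sum to 1000000.

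Scores were divided by 14.7 units (mean library total over 1000000), a pseudocount of 1 was added and log2 taken, which understates the fold change of low genes. The 6 libraries entered 1 two-sided fit of KO against WT (limma 3.58.1 in R 4.3.3, eBayes with a trend on the mean), with Benjamini-Hochberg adjustment over all 10989 genes. A filter on low genes (scaled value of 1 or more in 2 or more libraries) removed no gene, and the script was tested on simulated data. Each gene of the table reached at least 80 units in 2 or more libraries, so no filter tried on all 6 libraries could remove one. Shares of all genes thus cover only genes at that level. Fits with 1 library left out used the same filter and tested 10975 to 10989 genes. Positions came from GENCODE M21 (mm10), which matched 10941 genes by identifier, and promoter sequences from RefSeq. At thresholds of 90% identity over 300 bases, blastn 2.17.0 found no transcript of another gene like that of a member. Pou5f1, Sox2, Tbx3 and Sall4 overlap noncoding genes in the annotation; these were not in the table, and no source used here says whether counting used strand. Named genes were the 10 members, Ddx5, the 3 called genes with the largest change in each other list, and the 2 genes with the nearest profile to each called member; Kxd1 and Ing2 were named after their values were seen. One result from the list of relatives is not reported here. The members and lists were chosen with earlier results of these data known. Alternatives covered the pseudocount, the filter, scaling, the variance model, library weights, chromosome medians, a replicate block and leaving out each library.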

Additional observations from a re-analysis of the deposited data

Results flagged for a closer look

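Zfp42 was singled out for the gap between KO line 1 and the others of its 4 KO lines. KO line 1, at 7708 units, stood apart from lines 2 to 4, at 11450, 11450 and 12218 units, with a gap of 0.83 of the whole range, just past Dixon's limit for 4 samples. Of the 11 genes checked this way, the 10 members and Ddx5, Zfp42 alone passed the limit, and chance passes it in about 1 in 20 groups. Chromosome 8, which carries Zfp42, had its lowest medians in KO line 1 (-0.32) and WT replicate 1 (-0.34), and WT replicate 1 was also low for Zfp42, at 7527 units.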

How the results depend on the processing

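The log2 fold changes of Nanog, Prdm14 and Nr0b1 kept their sign in all 17 alternatives. All 3 calls held with both other pseudocounts, both other filters, quantile normalization, trimmed-mean scaling, unscaled values, no mean-variance trend and chromosome medians subtracted; the filters removed no gene. With library weights and with the replicate block, 0 members were called higher and 0 lower. Library weights called 382 genes in all, and adjusted p was 0.0989 for Nanog, 0.0651 for Prdm14 and 0.0617 for Nr0b1. The replicate block called 20 genes in all, with log2 fold changes of 0.69, 0.99 and -1.17 for the 3 genes. Numbers 3 and 4 occur only in KO, so this fit compares KO lines 1 and 2 with WT and draws nothing from lines 3 and 4. Replicate and line numbers share only a number, with deviations correlated at 0.145 for number 1 and 0.097 for number 2. Deviations of 2 WT libraries from their mean mirror each other, so these values do not test a pairing. With 1 library left out, 0 to 2 members were called higher and 0 to 2 lower, and 472 to 3304 genes in all (lowest when KO line 2 was left out, next with 572 for KO line 3 and 1223 for KO line 1, and highest when WT replicate 1 was left out). No member was called without KO line 3. Fits without 1 of the WT replicates hold no spread between WT libraries.

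Members that were not called turned sign in some fits. Pou5f1 was -0.025 with trimmed-mean scaling and -0.0078 with chromosome medians subtracted. With 1 library left out, Pou5f1 ranged from -0.13 to 0.16, Esrrb from -0.21 to 0.12, Tbx3 from -0.50 to 0.10, Zfp42 from -0.61 to 0.49 and Sall4 from -0.027 to 0.25. The depth of the libraries is unknown, so no counting error could be set beside these values.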
